A study of Homo sapiens with 9 samples.

Results

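The genes described here encode the aminoacyl-tRNA synthetases, 36 of the 58735 genes listed in the count files. Members were taken by gene name: 16 names ending in 2, PARS2 among them, form the mitochondrial set, and the other 20 form the cytosolic set. All 36 passed the filter on low counts, which left 18319 genes for testing. The cells were HEK293T, a human embryonic kidney line, of the tagged line HEK293T-PRPS1-HA-dTAG-PRPSAP1-V5-BromoTag, so all 9 libraries, controls included, came from cells with both tagged proteins. One group of 3 libraries received DMSO, the solvent, one group of 3 received dTAG47 at 500 nM to deplete PRPS1, and one group of 3 received AGB1 at 500 nM to deplete PRPSAP1. RNA was taken after 24 h, poly(A) RNA was sequenced, and the question asked was which transcripts change when either protein is removed.

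PRPS1 makes phosphoribosyl pyrophosphate, the precursor of nucleotides, and PRPSAP1 is a protein that associates with the enzyme. dTAG47 and AGB1 are degraders, molecules that bring a tagged protein to a ubiquitin ligase, so the mRNA of the tagged gene does not check the treatment. No library of untagged cells treated with a degrader was analysed here, so an effect of the compound and an effect of the depletion cannot be told apart. Whether a group's 3 libraries represent 3 cultures is not stated, so p-values reflect library-to-library spread alone, and that spread may be technical.

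An aminoacyl-tRNA synthetase joins an amino acid to its tRNA, with ATP as the energy source, and so supplies the ribosome with charged tRNA. Cytosolic and mitochondrial translation mostly use separate nuclear-encoded enzymes, except that GARS and KARS serve both compartments from one gene each. The enzymes fall into class I and class II by the fold of their catalytic domain, and several cytosolic ones are held in the multi-synthetase complex. When uncharged tRNA accumulates, the kinase GCN2 (EIF2AK4) raises translation of the transcription factor ATF4, which is known to act on many cytosolic synthetase genes through C/EBP-ATF response elements.

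That element was searched for in the RefSeq promoter windows (GRCh38.p14), which run from 250 bases before to 50 bases after a gene's start. The motif letters were TGATGNAAN, on both strands, and 30 of the 36 members matched the promoter table. DARS, LARS, VARS, YARS, AARS2 and VARS2 did not match. The element occurred in 8 of the 30 members, beside 1215 of 27305 genes (4.45%) in the whole table. It lay in 7 of 10 matched cytosolic genes commonly listed as ATF4 targets, in 0 of 6 other cytosolic genes and in 1 of 14 mitochondrial genes. The 8 matches are shown because they divide the members by a feature that does not come from the counts. Each line runs 5′ to 3′ on the gene's strand with the match in capitals and 10 bases on either side.
AARS, chr16:70289676-70289704, minus strand: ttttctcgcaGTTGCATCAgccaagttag
CARS, chr11:3057408-3057436, minus strand: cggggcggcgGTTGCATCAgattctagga
GARS, chr7:30594834-30594862, plus strand: ttacgcggcgATTTCATCAtgctccgagc
IARS, chr9:92293693-92293721, minus strand: ttttcagcgcGTTGCATCAcctccgtgcg
MARS, chr12:57488053-57488081, plus strand: gccggttccgGTTGCATCAgcgagggatt
NARS, chr18:57621804-57621832, minus strand: ctacgctctcTGATGCAACgccggaatcg
TARS, chr5:33440956-33440984, plus strand: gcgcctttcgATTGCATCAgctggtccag
YARS2, chr12:32756076-32756104, minus strand: tccacactgcTGATGGAAAaattaagttt
The core GTTGCATCA was shared, base for base, by AARS, CARS, IARS and MARS, and NARS carried the same 9 bases on the other strand. In CARS and MARS the match spanned the start of the transcript, from base -3 to base 6 in CARS and from base -5 to base 4 in MARS. IARS (from base -14) and GARS (from base -34) carried it just before the start, and TARS (from base 2) and NARS (from base 15) just after it. The AARS match began 188 bases and the YARS2 match 197 bases before the start. For CARS, GARS and TARS, the match lay in 1 of 2 listed promoters. The cAMP response element, TGACGTCA on both strands, occurred in 0 of the 30 members and in 614 genes (2.25%) of the table. These are matches of letters and not measured binding.

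Totals ran from 27964128 to 44803380 counts per library, and levels are given as CPM, counts scaled to a common library size, with TMM factors, which correct for library composition. Of the HEK293T markers, VIM averaged 354 CPM and NEFM 193 CPM, while PAX2 (1.37 CPM) and LHX1 (3.06 CPM) were low. Among 10 markers of blood, fibroblast, endothelial and liver cells, COL1A1 stood at 27.0 CPM and the other 9 averaged at most 0.149 CPM. PRPS1 read 99.1, 105 and 106 CPM with DMSO, 113, 110 and 106 with dTAG47 and 109, 109 and 110 with AGB1. PRPSAP1 read 36.6, 23.5 and 28.3 CPM with DMSO, 32.1, 29.8 and 26.8 with dTAG47 and 27.2, 29.9 and 30.2 with AGB1. Neither mRNA passed the test in either comparison with DMSO.

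Ranked per kilobase among all tested genes, the synthetase transcripts ran from the 27.4 percentile (SARS2) to the 97.9 percentile (IARS2), with FARS2 at 52.4. The 20 cytosolic genes together took 0.485% ± 0.0029 of the counts in the DMSO libraries, 0.495% ± 0.010 under dTAG47 and 0.503% ± 0.0073 under AGB1 (SD, n = 3). The 16 mitochondrial genes took 0.129% ± 0.0018, 0.129% ± 0.00062 and 0.131% ± 0.0013 in the same order (SD, n = 3). In summed level, the cytosolic set read 4827, 4856 and 4831 CPM with DMSO, 4889, 5067 and 4880 CPM with dTAG47 and 5070, 4962 and 5130 CPM with AGB1. In this sum both treated groups lay above the DMSO libraries without overlap. By the median log2 CPM of the set, AGB1 replicate 2 (7.822) lay within the DMSO range (7.817 to 7.832). The mitochondrial sum read 1291, 1263 and 1305 CPM with DMSO, 1291, 1298 and 1280 with dTAG47 and 1338, 1302 and 1311 with AGB1, and each treated group overlapped the controls. By its median log2 CPM, however, the mitochondrial set with dTAG47 (5.747 to 5.77) lay above DMSO (5.633 to 5.72). The contrast between the sets therefore depends on the summary used. No test was made of the sums, because the members were chosen with results of these data known, and no background share is given for them.

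Levels of different genes were compared per kilobase of exon. The length takes in all annotated exons of a gene, which may exceed the expressed transcript, so ranks depend on it. EPRS, the fused glutamyl- and prolyl-tRNA synthetase, had the highest mean level of the cytosolic set, 87.6 ± 5.26 CPM per kb (SD, n = 9), and CARS, the cysteine enzyme, the lowest, 5.48 ± 0.165 CPM per kb. EPRS read 519, 478 and 442 CPM with DMSO, 433, 505 and 468 with dTAG47 and 476, 472 and 505 with AGB1. CARS read 52.4, 55.0 and 57.2 CPM with DMSO, 54.9, 56.7 and 52.8 with dTAG47 and 56.2, 54.0 and 55.7 with AGB1. In both genes the 3 groups overlapped. IARS2, the mitochondrial isoleucine enzyme, had the highest mean level per kilobase of all 36, 92.1 ± 3.08 CPM per kb. It read 405, 390 and 382 CPM with DMSO, 367, 394 and 372 with dTAG47 and 393, 374 and 374 with AGB1. SARS2, the mitochondrial serine enzyme, was lowest at 0.782 ± 0.185 CPM per kb.

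The order per kilobase was mostly a gradual slope in the cytosolic set and a series of steps in the mitochondrial set. From EPRS down through IARS, SARS, KARS, AARS, GARS, RARS and FARSA to TARS, every pair of neighbours overlapped across the 9 libraries. YARS stood below TARS without overlap, and from YARS through NARS, MARS, DARS, FARSB, LARS, QARS and VARS to WARS neighbours overlapped again. HARS, at 13.8 CPM per kb, lay below WARS (26.4) and above CARS without overlap. In the mitochondrial set 7 of 15 neighbour pairs did not overlap, against 3 of 19 in the cytosolic set. A step here means no overlap, which depends on the spread of each gene as well as on the gap. PARS2 to HARS2 (ratio 1.28) overlapped, whereas YARS2 to TARS2 (1.22) did not. The mitochondrial genes are also fewer and cover a wider range. The clear steps ran from IARS2 to YARS2 (37.0 CPM per kb), from YARS2 to TARS2 (30.5), from LARS2 (28.2) to MARS2 (18.5), from NARS2 (15.4) to WARS2 (10.9), from HARS2 (8.31) to CARS2 (6.11), from RARS2 (5.68) to FARS2 (3.68) and from FARS2 to SARS2. EARS2 (17.04) and AARS2 (16.1) lay between MARS2 and NARS2, PARS2 (10.7) between WARS2 and HARS2, and VARS2 (5.87) between CARS2 and RARS2. SARS2 and VARS2 overlap other genes on the same strand (46.2% and 21.99% of exonic bases), so their places in the order are uncertain.

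**Figure D1:**
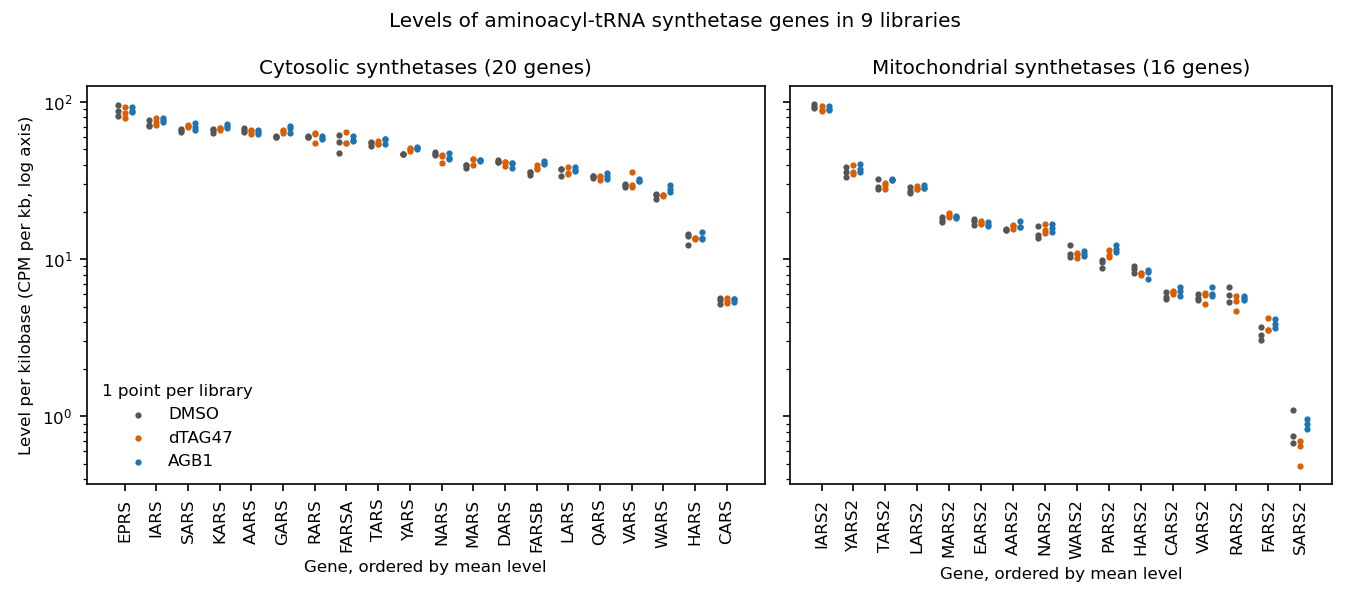
Level per kilobase of exon (CPM per kb, log axis) of the 20 cytosolic (left) and 16 mitochondrial (right) synthetase genes, 1 point per library, coloured by group and ordered by mean level. The cytosolic genes slope from EPRS at 87.6 to WARS at 26.4 with HARS and CARS below, and the mitochondrial genes run from IARS2 at 92.1 to SARS2 at 0.782.

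The members varied little between libraries. Their median coefficient of variation over the 9 libraries was 5.03%, with 4.52% in the cytosolic and 5.98% in the mitochondrial set, beside 7.69% over the 11436 tested genes of 5 CPM or more. Those genes were not matched to the members in level, so a lower spread is not shown to be particular to the members. QARS, the glutamine enzyme, varied least at 2.81%. SARS2, with 65 to 114 counts per library, varied most at 23.7%.

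With dTAG47, no synthetase gene passed an adjusted p of 0.05. The edgeR quasi-likelihood test called 0 of 36 members, beside 0.0600% of all tested genes (11 of 18319). DESeq2 also called 0 members, and 47 genes in all. At an unadjusted p under 0.05 there were 3 members, FARSB, GARS and YARS, all positive, beside 7.28% of all tested genes. In 7 members (FARSB, GARS, SARS, YARS, AARS2, MARS2 and PARS2) all dTAG47 libraries lay above all DMSO libraries, beside 5.80% of tested genes, and in 0 members all lay below, beside 5.82%. The log2 fold change was positive in 23 of 36 members with a median of 0.014, against 49.7% positive and a median of -0.00097 over all tested genes. The cytosolic median was 0.014 (14 of 20 positive) and the mitochondrial median 0.015 (9 of 16 positive).

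With AGB1 the positive values were more numerous, and again 0 of 36 members passed in edgeR, beside 0.104% of tested genes (19 of 18319). DESeq2 called 1 member, FARSB, among 81 genes that it called in all. At an unadjusted p under 0.05 there were 6 members (FARSB, GARS, MARS, WARS, YARS and PARS2), all positive, beside 7.76% of tested genes. All AGB1 libraries lay above all DMSO libraries in 9 members (FARSB, GARS, KARS, MARS, VARS, WARS, YARS, AARS2 and PARS2), beside 6.56% of tested genes. They lay below in 1 member, DARS, beside 6.75%. Among the 11436 tested genes of 5 CPM or more, where 35 of the members fall, the share above without overlap was 7.51%. The log2 fold change was positive in 27 of 36 members with a median of 0.078, against 49.7% positive and a median of -0.00092 over all tested genes. The cytosolic median was 0.066 (16 of 20 positive) and the mitochondrial median 0.086 (11 of 16 positive).

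**Figure D2:**
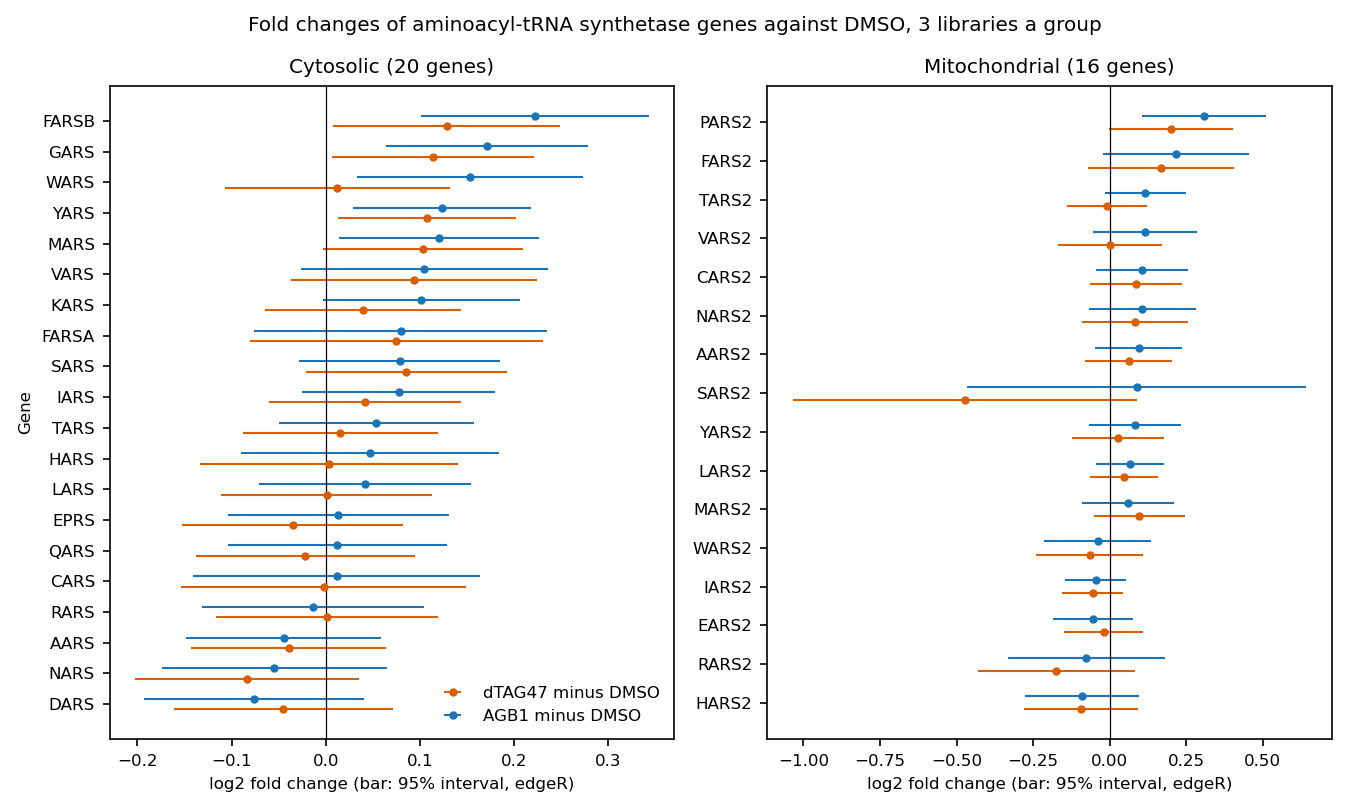
Log2 fold change against DMSO of each cytosolic (left) and mitochondrial (right) synthetase gene with dTAG47 (orange) and AGB1 (blue), with 95% intervals from edgeR, 3 libraries a group, on axes of different range. FARSB (0.22) and PARS2 (0.31) had the largest AGB1 values of their sets, and the SARS2 interval is the widest.

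The intervals bound what these libraries could have missed. With dTAG47, the 95% interval of the fold change lay wholly between 0.8 and 1.25 in 32 of 36 members, and with AGB1 in 31 of 36. The exceptions were FARS2, PARS2, RARS2 and SARS2 in both comparisons, all mitochondrial, and FARSB with AGB1. Both comparisons use the same 3 DMSO libraries, so values high in one tend to be high in the other.

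FARSB encodes the beta subunit of the cytosolic phenylalanine enzyme (chr2:222570536-222656337, minus strand). It read 121, 122 and 115 CPM with DMSO, 127, 129 and 135 CPM with dTAG47 and 142, 137 and 138 CPM with AGB1. The 3 groups did not overlap, with DMSO lowest and AGB1 highest. The log2 fold change with AGB1 was 0.22 (SE 0.059, edgeR adjusted p = 0.198), a fold of 1.07 to 1.27 by its 95% interval. With dTAG47 it was 0.13 (SE 0.059, edgeR adjusted p = 0.657). The AGB1 value passed the threshold in DESeq2 (adjusted p = 0.0180) and in edgeR after each library's GC trend was removed, 3 of 18 settings in all. FARSA, the alpha subunit of the same enzyme, read 116, 136 and 151 CPM with DMSO, 156, 135 and 133 with dTAG47 and 137, 140 and 149 with AGB1. The lowest of the 9 values was a DMSO library, and the groups overlapped. The ratio of FARSA to FARSB per kilobase ranged from 1.33 to 1.82 over the 9 libraries.

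GARS charges glycine tRNA in both compartments (chr7:30594681-30634033, plus strand). It read 247, 254 and 248 CPM with DMSO, 266, 274 and 271 with dTAG47 and 286, 264 and 294 with AGB1. Every treated library lay above every control, while the treated groups overlapped each other. The log2 fold change was 0.11 (SE 0.053, edgeR adjusted p = 0.660) with dTAG47 and 0.17 (SE 0.053, edgeR adjusted p = 0.321) with AGB1. KARS, the lysine enzyme of both compartments, stood at 0.040 (dTAG47) and 0.10 (AGB1) on the log2 fold change scale. Its AGB1 libraries, 280 to 296 CPM, lay above the 258 to 276 CPM of DMSO.

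YARS, the cytosolic tyrosine enzyme (chr1:32775237-32818153, minus strand), had the tightest controls among the members described. It read 384, 383 and 384 CPM with DMSO, 420, 416 and 404 with dTAG47 and 413, 423 and 418 with AGB1. The treated libraries lay above the controls without overlap and shared one range. On the log2 scale the change was 0.11 (SE 0.046, edgeR adjusted p = 0.627) with dTAG47 and 0.12 (SE 0.046, edgeR adjusted p = 0.464) with AGB1. Of its exonic bases, 4.82% overlap genes on the other strand, S100PBP with the largest part.

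WARS, the cytosolic tryptophan enzyme (chr14:100333788-100376805, minus strand), was the member with the smallest p between the treated groups. It read 153, 167 and 163 CPM with DMSO, 164, 163 and 160 with dTAG47 and 190, 178 and 170 with AGB1. The AGB1 libraries lay above the other 6, and dTAG47 lay within the DMSO range. The log2 fold change was 0.15 (SE 0.058, edgeR adjusted p = 0.477) with AGB1 and 0.012 (SE 0.058, edgeR adjusted p = 0.983) with dTAG47. Of its exonic bases, 10.6% overlap genes on the other strand, AL157871.4 with the largest part. AL157871.4 had 0 counts in every library. WDR25, which shares part of its sequence with WARS, was expressed, with 215 to 352 counts per library and a mean of 8.255 CPM. The part of such reads in the WARS counts was not tested.

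PARS2, the mitochondrial proline enzyme (chr1:54756898-54764514, minus strand), had the largest AGB1 value of the 36. It read 20.7, 22.5 and 23.2 CPM with DMSO, 24.3, 26.9 and 25.1 with dTAG47 and 28.8, 26.0 and 27.4 with AGB1. All treated libraries lay above all controls, and the treated groups overlapped. On the log2 scale the change was 0.20 (SE 0.099, edgeR adjusted p = 0.681) with dTAG47 and 0.31 (SE 0.099, edgeR adjusted p = 0.359) with AGB1. The proline activity of the cytosol resides in EPRS, whose log2 fold changes were -0.035 and 0.013. The ratio of EPRS to PARS2 per kilobase was 9.39 ± 1.32 in the controls, 7.93 ± 0.223 under dTAG47 and 7.63 ± 0.446 under AGB1 (SD, n = 3), and both treated groups lay below the controls without overlap. PARS2 was named for its small p, so this ratio largely restates the PARS2 values and adds no separate support.

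**Figure D3:**
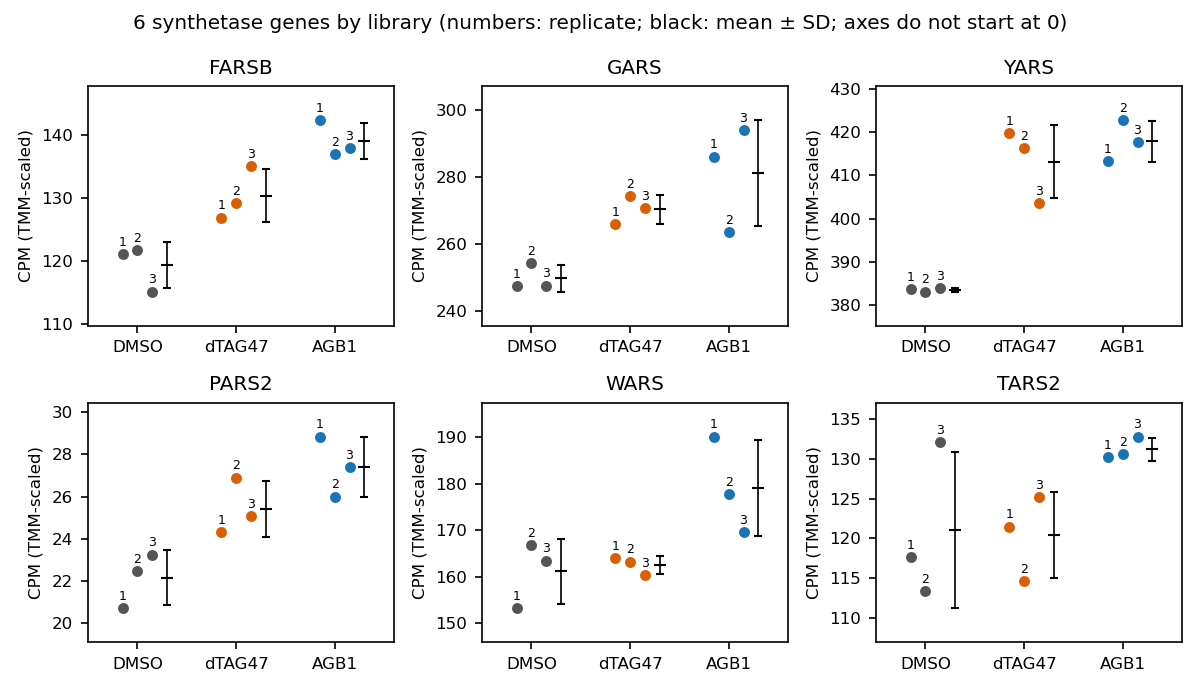
TMM-scaled CPM of FARSB, GARS, YARS, PARS2, WARS and TARS2 in each library (numbers mark the replicate) with the mean and SD of each group, 3 libraries a group, on axes that do not start at 0. In FARSB, GARS, YARS and PARS2 every treated library lies above every DMSO library, whereas in WARS only the AGB1 libraries do.

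Compared directly, dTAG47 and AGB1 did not differ at the threshold in any synthetase gene. The edgeR test called 0 of 36 members and 0% of all tested genes, and DESeq2 called 0 as well. At an unadjusted p under 0.05 there was 1 member, WARS, beside 4.02% of tested genes. The dTAG47 libraries lay wholly below the AGB1 libraries in 5 members (FARSB, KARS, WARS, SARS2 and TARS2), beside 5.10% of tested genes. They lay wholly above in 0, beside 5.35%. The log2 difference, dTAG47 minus AGB1, was negative in 30 of 36 members and positive in 6, with a median of -0.031. Over all tested genes 50.04% were positive, with a median of 0.000055. The members were measured in the same libraries, so they are not independent. For WARS it was -0.14 (SE 0.058, edgeR adjusted p = 0.999), and for FARSB -0.094 (SE 0.059). The interval lay between 0.8 and 1.25 in 34 of 36 members, all except RARS2 and SARS2.

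TARS2, the mitochondrial threonine enzyme, read 118, 113 and 132 CPM with DMSO, 121, 115 and 125 with dTAG47 and 130, 131 and 133 with AGB1. The AGB1 libraries were close together and above dTAG47, while 1 DMSO library reached the AGB1 range. Its log2 difference between the treatments was -0.12 (SE 0.064, edgeR adjusted p = 0.999).

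SARS2 (chr19:38915266-38930896, minus strand) read 2.42, 3.55 and 2.20 CPM with DMSO, 2.25, 1.56 and 2.08 with dTAG47 and 2.87, 3.11 and 2.69 with AGB1. The dTAG47 libraries lay below the AGB1 libraries, and both overlapped DMSO. Its log2 difference between the treatments was -0.56 (SE 0.27, edgeR adjusted p = 0.999). SARS2 counts are uncertain: 46.2% of its exonic bases overlap other genes on the same strand, AC011455.2 with the largest part. Of its 75-base words, 85.4% occur in another gene. AC011455.2 itself had 0 to 3 counts per library, and with both genes summed, an alternative chosen after seeing the data, the log2 difference was -0.53.

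By role, the 8 synthetases of the multi-synthetase complex had medians of 0.0012 with dTAG47 and 0.028 with AGB1, with 0 of 8 called in either. MARS, the methionine enzyme of the complex, was its highest member with log2 fold changes of 0.10 and 0.12. It overlaps its neighbours on the other strand over 12.4% of its exonic bases, where ARHGAP9 and DDIT3 (6.58 CPM) lie. DARS, the aspartate enzyme, was the lowest at -0.045 and -0.076. IARS, LARS, QARS and RARS, for isoleucine, leucine, glutamine and arginine, lay between -0.022 and 0.042 with dTAG47 and between -0.013 and 0.077 with AGB1. The estimates in the complex were thus of either sign, but the DARS intervals included no change (SE 0.057 in each comparison). Differences between its members were not tested.

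The 13 cytosolic genes commonly listed as ATF4 targets had medians of 0.016 with dTAG47 and 0.077 with AGB1, with 9 and 11 positive. The other 7 cytosolic genes had medians of 0.0036 and 0.047, with 5 positive in each comparison. Listed genes did not move as a block: NARS, the asparagine enzyme, was at -0.083 and -0.054, and AARS, the alanine enzyme, at -0.039 and -0.045. SARS, for serine, had 0.086 and 0.079, TARS, for threonine, 0.016 and 0.054, and VARS, for valine, 0.094 and 0.10. Split by the promoter element instead, the 7 cytosolic genes with a match had medians of 0.016 with dTAG47 and 0.054 with AGB1. The 9 cytosolic genes searched without a match had 0.012 and 0.079, FARSB and WARS among them. With AGB1 the genes with a match spanned -0.054 to 0.17 and those without -0.013 to 0.22, ranges that overlapped, and the difference between them was not tested.

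**Figure D4:**
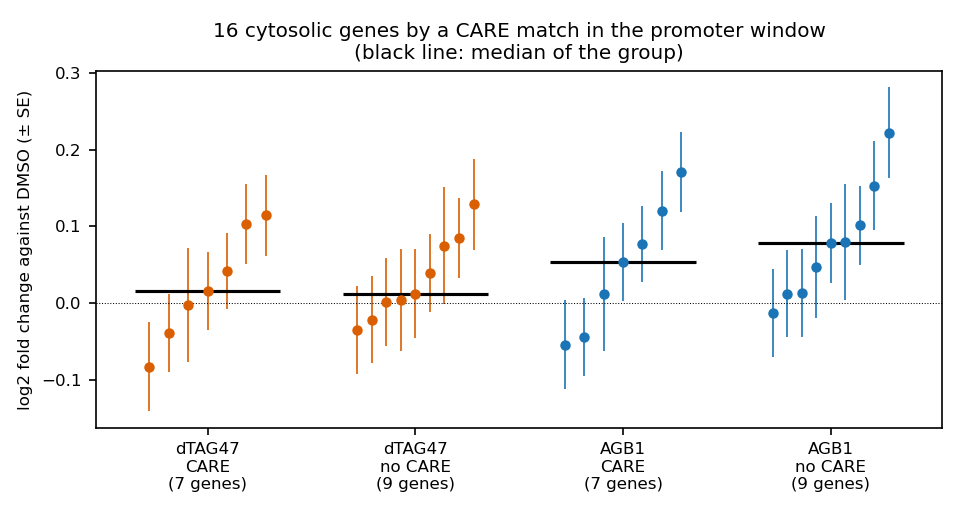
Log2 fold change against DMSO (points, with 1 SE) of the 16 cytosolic genes with a promoter in the table, split by a match to the C/EBP-ATF element (CARE), with the group median as a black line. The 7 genes with a match and the 9 without cover overlapping ranges in both comparisons, with medians of 0.016 and 0.012 for dTAG47 and 0.054 and 0.079 for AGB1.

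By class, the 19 class I genes had medians of 0.0014 with dTAG47 and 0.060 with AGB1, and the 17 class II genes 0.040 and 0.088. No gene of either class was called in edgeR. The mitochondrial genes not yet described had values of either sign. With dTAG47 they ran from -0.17 in RARS2 to 0.17 in FARS2, for arginine and phenylalanine. With AGB1, FARS2 (0.22), CARS2, NARS2, VARS2, AARS2, YARS2, LARS2 and MARS2 were positive and WARS2, IARS2, EARS2, RARS2 and HARS2 negative, the last at -0.091. VARS2 counts are uncertain, because 21.99% of its exonic bases overlap other genes on the same strand, GTF2H4 with the largest part.

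HARS and HARS2, the cytosolic and mitochondrial histidine enzymes, are divergent neighbours, with 84 bases between their RefSeq starts (chr5:140691371-140691454, GRCh38.p14). HARS read 97.1, 110 and 114 CPM with DMSO, 108, 106 and 107 with dTAG47 and 108, 106 and 117 with AGB1. HARS2 read 30.5, 34.0 and 32.6 CPM with DMSO, 30.5, 29.9 and 30.7 with dTAG47 and 31.2, 32.0 and 28.03 with AGB1. The groups overlapped in both genes. Log2 fold changes were 0.0036 and 0.047 for HARS and -0.093 and -0.091 for HARS2, with dTAG47 and AGB1 in that order. In the annotation 8.38% of HARS and 11.7% of HARS2 exonic bases overlap genes on the opposite strand. The other gene of the pair has the largest part in each. Without a stated strand setting, reads in these overlaps cannot be assigned.

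For an amino acid with an enzyme in each compartment, the cytosolic transcript was usually the more abundant per kilobase. RARS exceeded RARS2 by 10.6 times on average, AARS exceeded AARS2 by 4.07 times and HARS exceeded HARS2 by 1.66 times. VARS exceeded VARS2, whose counts are uncertain, by 5.28 times. The reverse held for isoleucine and cysteine, with ratios of 0.815 for IARS to IARS2 and 0.898 for CARS to CARS2. On CPM alone, IARS (555) stood above IARS2 (383.5), and CARS (55.0) below CARS2 (63.9). The isoleucine order thus rests on the exon lengths, 7401 bases for IARS and 4165 for IARS2. After their values were seen, the alanine and isoleucine pairs were singled out. AARS to AARS2 was 4.22, 4.32 and 4.38 with DMSO, 3.98, 4.04 and 4.002 with dTAG47 and 4.02, 3.81 and 3.89 with AGB1, and the treated libraries lay below the controls. IARS to IARS2 was 0.791, 0.763 and 0.768 with DMSO, 0.809, 0.842 and 0.832 with dTAG47 and 0.815, 0.832 and 0.884 with AGB1. Here the treated libraries lay above the controls. Ratios between synthetase genes numbered 18, among them FARSA to FARSB, which are subunits of the same enzyme. With dTAG47, 12 overlapped the controls, 2 lay above (IARS to IARS2 and SARS to SARS2) and 4 below (AARS to AARS2, CARS to CARS2, NARS to NARS2 and EPRS to PARS2). With AGB1, 14 overlapped, 2 lay above (IARS to IARS2 and MARS to MARS2) and 2 below (AARS to AARS2 and EPRS to PARS2). No such counts were made for ratios of other genes, so no background share is given. Several ratios share a gene, and all use the same DMSO libraries.

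Some members followed the GC content of their transcripts, to a degree that differed between libraries. Over 11435 genes, Spearman's rho between GC content and the deviation of a library from the gene's mean was 0.62 in dTAG47 replicate 1 and -0.38 in DMSO replicate 1. It was -0.28 and 0.27 in DMSO replicates 2 and 3, and -0.33 and 0.029 in dTAG47 replicates 2 and 3. With AGB1 it was -0.0063, -0.027 and 0.050, so the trend was larger in the DMSO libraries than in the AGB1 libraries. Across the 36 members rho was 0.64 in dTAG47 replicate 1 and -0.46 in DMSO replicate 1. This is a description, since the points of a library share its depth and preparation. The members also had a rho of 0.52 in AGB1 replicate 2 and -0.42 in dTAG47 replicate 3, where it was -0.027 and 0.029 over all these genes. VARS, at 62.6% GC, read 217.5 CPM in dTAG47 replicate 1 against 176 and 182 in the other dTAG47 libraries. Without that library its log2 fold change went from 0.094 to -0.0064. FARSA, at 60.3% GC, was lowest in DMSO replicate 1, without which its values were -0.019 with dTAG47 and -0.012 with AGB1. The part of GC content in the other values was not tested beyond removing each library's trend.

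**Figure D5:**
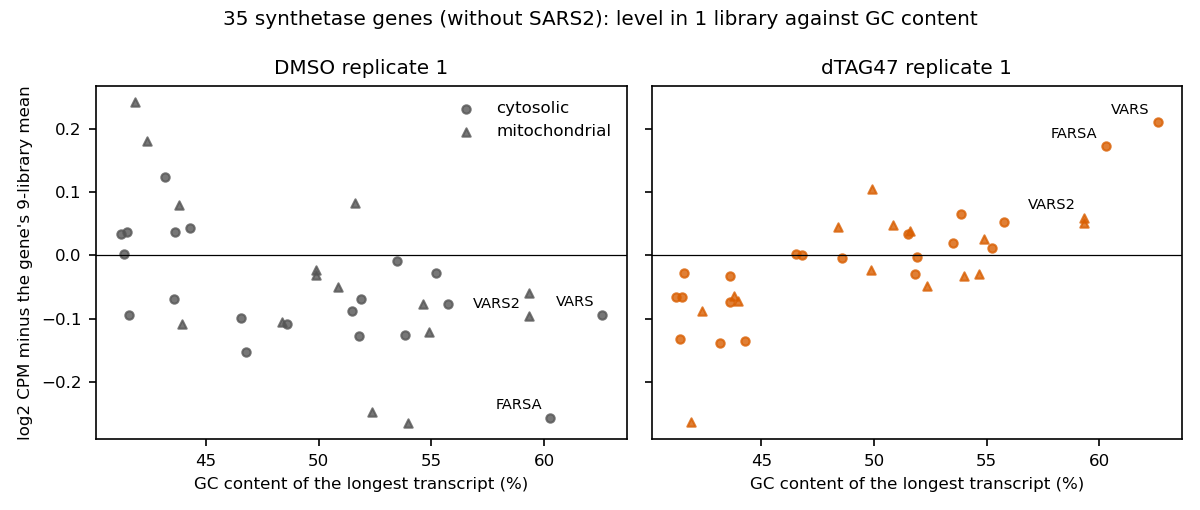
Log2 CPM in DMSO replicate 1 (left) and dTAG47 replicate 1 (right) minus each gene's mean over 9 libraries, against GC content of the longest transcript, for 35 synthetase genes (circles cytosolic, triangles mitochondrial, SARS2 left out). Values are mostly lower at high GC content in DMSO replicate 1 and higher there in dTAG47 replicate 1, where VARS and FARSA stand highest.

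Genes that work with the synthetases were taken from lists. Of 13 partners of the cytosolic enzymes, among them the complex scaffolds AIMP1, AIMP2 and EEF1E1 and the subunits of elongation factor 1, 12 were tested and 0 were called in either comparison with DMSO. Their medians were -0.0031 with dTAG47 and 0.0097 with AGB1, and DTD1, which removes D-amino acids from tRNA, was at 0.19 with dTAG47. Of 12 partners in mitochondria, 0 were called, with medians of 0.0066 and 0.026. MTFMT, which formylates initiator methionyl-tRNA, was at 0.25 (SE 0.11, edgeR adjusted p = 0.552) with AGB1, and the translation factor GFM2 at -0.20 (SE 0.081, edgeR adjusted p = 0.599) with dTAG47. Of 24 tRNA maturation genes, 0 were called, with medians of -0.0088 and 0.019, and TSEN54, a subunit of the splicing endonuclease, was at 0.18 with AGB1.

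In the list for uncharged-tRNA sensing and ATF4, 2 of 26 genes rose with dTAG47 and the same count with AGB1, SLC7A5 and CHAC1 in both, and 0 fell, beside 0.0600% and 0.104% of all tested genes called. The list was chosen with earlier results of these data known, so its counts and medians are a description. SLC7A5, which imports leucine and other large amino acids, read 425, 384 and 410 CPM with DMSO, 519, 490 and 469 with dTAG47 and 503, 497 and 512 with AGB1. Its log2 fold change was 0.28 (SE 0.050, edgeR adjusted p = 0.0213) with dTAG47 and 0.31 (SE 0.050, edgeR adjusted p = 0.00344) with AGB1. CHAC1, which degrades glutathione, read 5.30, 7.60 and 7.15 CPM with DMSO, 12.4, 10.3 and 12.4 with dTAG47 and 10.3, 12.0 and 13.2 with AGB1. Its log2 fold change was 0.80 (SE 0.16, edgeR adjusted p = 0.0330) with dTAG47 and 0.82 (SE 0.16, edgeR adjusted p = 0.0207) with AGB1. Both genes therefore stood above all controls in every treated library. ATF4 mRNA read 924, 1002 and 996 CPM with DMSO, 1050, 1025 and 1024 with dTAG47 and 1067, 1075 and 1050 with AGB1, with log2 fold changes of 0.085 (edgeR adjusted p = 0.684) and 0.13 (edgeR adjusted p = 0.366). The list medians were 0.079 and 0.10, beside 0.014 and 0.078 for the 36 synthetase genes. Of its 23 genes in the promoter table, 5 held the C/EBP-ATF element, CHAC1 among them but neither SLC7A5 nor ATF4.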

How the data were processed

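Poly(A) RNA of 9 HEK293T libraries was sequenced, 3 each for DMSO, dTAG47 and AGB1. The authors deposited raw counts per gene for each library. HISAT2, DESeq2 and hg38 are named in the submitters' processing notes, while the counter and its handling of strand were not given in the sources used here. All 58735 gene positions matched GENCODE 29. The counts were tested with edgeR 4.0.16 in R 4.3.3 (quasi-likelihood, filterByExpr, TMM, 9 libraries in one fit by group, Benjamini-Hochberg over 18319 genes, threshold 0.05), and DESeq2 1.42.0 was an alternative. The fit was checked on simulated data. Levels per kilobase use the union of a gene's exons. "No overlap" means that all 3 libraries of one group lie on one side of the other group's. Totals of 27964128 to 44803380 counts set the counting precision. Values in every library were given for the 4 members with the smallest p in each comparison, the highest and lowest of each set, and HARS with HARS2, for PRPS1, PRPSAP1 and ATF4, and for called genes of the other lists. KARS and FARSA were added as partners. The members and lists were chosen with earlier results of these data known. No duplicate library was found.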

Additional observations from a re-analysis of the deposited data

How the results depend on the processing

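With dTAG47, 11 genes were called over all tested genes, against 47 with DESeq2, 43 with no filter on low counts, 4 with only the 2 groups compared in the fit and 21 with each library's GC trend removed. With AGB1, 19 genes were called, against 81 with DESeq2, 67 with no filter, 48 with the GC trend removed and 47 with the GC trend removed together with the replicate block. Between dTAG47 and AGB1, 0 genes were called, against 13 with no filter. In these settings the cause was not tested. Among cytosolic members, 1 gene (FARSB, AGB1) was called with DESeq2, 1 with the GC trend removed and 1 with the GC trend removed together with the block, and 0 in every other setting; 0 mitochondrial members were called in any of the 18 settings. Leaving out 1 library at a time gave 2 (without dTAG47 replicate 1) to 20 (without DMSO replicate 3) genes for dTAG47, 6 (without AGB1 replicate 3) to 55 (without DMSO replicate 3) for AGB1 and 0 to 2 (without AGB1 replicate 1) between them, and 0 members in each. The medians then ranged for dTAG47 from 0.00087 to 0.028 (cytosolic) and from -0.023 (without dTAG47 replicate 1) to 0.063 (without DMSO replicate 3, mitochondrial), for AGB1 from 0.038 to 0.088 and from 0.060 to 0.099, and between the treatments from -0.042 to -0.016 and from -0.057 to -0.017. With the GC trend removed the mitochondrial dTAG47 median was -0.0062. The sign held in all 18 settings for 20 of 36 members with dTAG47, 27 with AGB1 and 17 between the treatments. With the replicate number as a block, 10 and 17 genes were called against DMSO and 0 between the treatments, with 0 members. Same-numbered libraries did not deviate together: correlations of deviations ran from -0.16 to 0.071 over 9 pairs, and from -0.25 to 0.26 over 18 pairs of other numbers. SARS2 had the fewest counts of the members, 65 to 114 per library. The parts of depth and of sequence shared with other genes in this were not tested.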
